A study of Mus musculus with 162 samples.

Results

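PPARs are nuclear receptors that bind fatty acids and their derivatives, and they switch on genes for burning fat in liver and brown fat and for storing it in white fat. Each binds DNA as a pair with a retinoid X receptor, RXR, which also pairs with receptors for thyroid hormone, vitamin D, retinoic acid, oxysterols and bile acids. C/EBP proteins are leucine zipper factors that act beside PPARγ in fat cell formation and that drive liver programmes of glucose production and the acute phase. The genes reported here are Ppara, Ppard and Pparg for the 3 PPARs, Ppargc1b for the coactivator PGC-1β, Rxra, Rxrb and Rxrg for the 3 RXRs, and Cebpa, Cebpb and Cebpd for C/EBPα, β and δ. They are 10 of the 53686 genes in the count table, picked by symbol as regulators of fasting and fat metabolism.

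The study asked how organs of the mouse respond together to a short fast. Adult C57Bl/6J males of 8 to 9 weeks were fed ad libitum (0 h) or fasted for 2, 8, 12, 18 or 22 h, 3 mice per time, and all were killed at the same hour of the day. Each of the 18 mice gave 9 organs, here OB (olfactory bulb), brain (BRN), cerebellum (CBL), brainstem (BST), stomach (STM), liver (LIV), iBAT (interscapular brown fat), pgWAT (perigonadal white fat) and psWAT (posterior subcutaneous white fat). The study left out 5 of the RNA-seq libraries for low totals, and the retained ones are used here unless said otherwise.

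Counts in genes per library, in M (mega counts), ran from 3.05 to 27.8 M with a median of 8.74 M. By organ the lowest, median and highest totals were 8.22, 11.6 and 17.7 M in OB, 3.05, 8.11 and 12.1 M in brain, 6.49, 8.45 and 22.1 M in cerebellum, and 7.00, 10.5 and 11.8 M in brainstem. They were 6.85, 8.74 and 13.8 M in stomach, 6.96, 8.64 and 12.5 M in liver, 3.16, 9.58 and 27.8 M in iBAT, 5.79, 8.16 and 19.8 M in pgWAT, and 4.10, 6.88 and 9.80 M in psWAT. The 3 fed cerebellum libraries, with 20396385 to 22071004 counts, were deeper than the 6 late ones with 6879474 to 9487976. A level below is in CPM, counts per M of the library, with library totals scaled by TMM within the organ. Fed means 0 h, and late means the mean of 18 h and 22 h, so a late fold change is this mean against 0 h. A gene is called where its adjusted p over all kept genes of the organ is under 0.05.

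Several libraries stand apart. By whole profile 3 retained libraries lay nearer to the mean of another organ than to their own: pgWAT 22 h replicate 2 nearer to stomach, psWAT 8 h replicate 1 nearer to pgWAT, and psWAT 12 h replicate 3 nearer to cerebellum. In pgWAT 22 h replicate 2 the 4 mature adipocyte markers summed to 1257 CPM, against 8652 to 16320 in the 17 other pgWAT libraries, and the 4 epididymal epithelium markers (most abundant Crisp1) summed to 19780 against an organ median of 9.62. The epididymal sum was also 9391 in pgWAT 18 h replicate 3, 2616 in pgWAT 2 h replicate 2 and 609.6 in pgWAT 22 h replicate 3. The 4 hepatocyte markers (most abundant Alb) reached 4078 in pgWAT 18 h replicate 2. In psWAT 12 h replicate 3 neuron markers summed to 3476 and cerebellar neuron markers to 3430.

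psWAT was the least even organ. Its mature adipocyte markers (most abundant Cidec) summed to between 102.1 and 9043 CPM with a median of 1166, its lymphocyte markers (most abundant Cd79a) had a median of 719, and its skeletal muscle markers reached 28590. The other organs carried their own markers at levels such as 85070 for hepatocyte genes in liver and 6910 for brown adipocyte genes in iBAT, as medians of the sums. In bulk samples fewer cells of a type and less RNA per cell cannot be told apart, so every level below is one of whole tissue.

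The design also sets a limit for 5 organs. In OB, stomach, liver and pgWAT fed and late libraries shared no sequencing lane, so there the late contrast is also one between lanes, and only other times link the lanes. In brain 0 of 3 fed and 5 of 5 late libraries came from 1 of the 2 series of library numbers, so the late contrast is also one between series. In iBAT the only retained library of that series was 22 h replicate 2, which also had the organ's lowest total (3.16 M). Library series as a covariate in iBAT therefore sets that library alone apart, much as leaving it out does.

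Coordinates are those of Gencode M21 on GRCm38. Ppara lies at chr15:85734983-85802819, Ppard at chr17:28232700-28301474, Pparg at chr6:115360951-115490399 and Ppargc1b at chr18:61298136-61400431. Rxra lies at chr2:27676440-27762957, Rxrb at chr17:34031812-34038399, Rxrg at chr1:167598384-167639623, Cebpa at chr7:35119293-35121928, Cebpb at chr2:167688915-167690418 and Cebpd at chr16:15887286-15891031. Ppargc1b is on the minus strand and the other 9 are on the plus strand. Genes on the opposite strand share 20.7% of the exon bases of Cebpb (Tmem189), 15% of those of Cebpd (Spidr) and 1.93% of those of Cebpa (Gm45091). The strand setting of the counting step is not given, so the counts of these 3 genes are uncertain by whatever those neighbours add.

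Each organ had its own mixture of the 10 regulators. The receptor of fat burning was highest in brown fat and liver, the fat cell regulators Pparg and Cebpa were highest in pgWAT and iBAT, Rxra was highest in liver and, over all times together, Rxrb in brain. No member was absent from an organ, since all 10 passed the count filter in all 9. Levels below are means with the SD over 16 to 18 libraries, from the highest to the lowest, and neighbours in that order were compared by a permutation test paired by mouse. Libraries of the same time and replicate number were taken as the same mouse, which the sample titles do not state. The mean correlation between organs was 0.026 over 608 pairs so matched, and 0.000 over 9128 pairs of other mice at other times.

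Ppara encodes PPARα, the receptor behind fatty acid oxidation and ketone production. Its level was 109.1 (SD 58.55) in iBAT, 33.6 (SD 7.73) in liver, 4.40 (SD 1.87) in stomach, 3.35 (SD 1.58) in pgWAT, 3.07 (SD 4.27) in psWAT, 2.83 (SD 1.07) in OB, 2.31 (SD 0.8095) in brainstem, 2.27 (SD 0.513) in cerebellum and 0.921 (SD 0.685) in brain. For Ppara 3 of 8 neighbouring pairs differed, and the test did not set apart stomach from pgWAT, pgWAT from psWAT, psWAT from OB, OB from brainstem or brainstem from cerebellum. Ppard encodes PPARδ, which is expressed widely and supports oxidative metabolism. Its level was 59.98 (SD 9.30) in stomach, 30.7 (SD 3.28) in cerebellum, 28.1 (SD 4.59) in psWAT, 27.95 (SD 1.78) in OB, 23.9 (SD 1.795) in brainstem, 21.05 (SD 5.87) in iBAT, 20.7 (SD 6.30) in pgWAT, 16.3 (SD 3.50) in brain and 12.2 (SD 2.55) in liver. For Ppard 4 of 8 neighbouring pairs differed, and the test did not set apart psWAT from OB, brainstem from iBAT, iBAT from pgWAT or pgWAT from brain. Pparg encodes PPARγ, the receptor needed to form fat cells. Its level was 326 (SD 130.5) in pgWAT, 250.5 (SD 41.4) in iBAT, 88.2 (SD 93.8) in psWAT, 39.6 (SD 17.3) in stomach, 11.3 (SD 1.29) in OB, 6.69 (SD 2.45) in liver, 3.20 (SD 0.785) in cerebellum, 2.31 (SD 1.72) in brain and 0.995 (SD 0.3925) in brainstem. For Pparg 4 of 8 neighbouring pairs differed, and the test did not set apart pgWAT from iBAT, psWAT from stomach, cerebellum from brain or brain from brainstem. Ppargc1b encodes PGC-1β, a coactivator of mitochondrial genes. Its level was 47.4 (SD 15.8) in iBAT, 12.3 (SD 2.12) in cerebellum, 8.17 (SD 2.20) in stomach, 6.52 (SD 3.52) in psWAT, 6.11 (SD 2.43) in OB, 5.19 (SD 1.01) in brainstem, 3.77 (SD 1.85) in liver, 3.09 (SD 1.84) in pgWAT and 2.90 (SD 1.71) in brain. For Ppargc1b 3 of 8 neighbouring pairs differed, and the test did not set apart stomach from psWAT, psWAT from OB, OB from brainstem, liver from pgWAT or pgWAT from brain.

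Among the RXRs, Rxra encodes RXRα, the form that dominates liver. Its level was 309 (SD 37.7) in liver, 136.6 (SD 43.1) in pgWAT, 95.6 (SD 39.4) in psWAT, 95.2 (SD 14.9) in stomach, 70.75 (SD 15.9) in iBAT, 63.95 (SD 4.44) in brainstem, 38.5 (SD 6.27) in brain, 27.05 (SD 2.72) in cerebellum and 20.3 (SD 1.77) in OB. For Rxra 6 of 8 neighbouring pairs differed, and the test did not set apart psWAT from stomach or iBAT from brainstem. Rxrb encodes RXRβ, a broadly expressed form. Its level was 116.5 (SD 35.7) in brain, 89.01 (SD 10.55) in OB, 79.1 (SD 12.6) in psWAT, 73.3 (SD 3.59) in cerebellum, 68.2 (SD 16.1) in iBAT, 51.8 (SD 3.23) in brainstem, 45.7 (SD 6.52) in stomach, 42.3 (SD 6.715) in liver and 37.75 (SD 4.275) in pgWAT. For Rxrb 4 of 8 neighbouring pairs differed, and the test did not set apart psWAT from cerebellum, cerebellum from iBAT, stomach from liver or liver from pgWAT. Rxrg encodes RXRγ, known from brain and muscle. Its level was 32.65 (SD 10.8) in iBAT, 22.25 (SD 7.53) in pgWAT, 21.1 (SD 6.29) in brain, 14.4 (SD 10.2) in psWAT, 11.05 (SD 1.39) in OB, 4.65 (SD 1.83) in liver, 3.95 (SD 0.878) in brainstem, 1.37 (SD 0.635) in cerebellum and 0.9765 (SD 0.637) in stomach. For Rxrg 3 of 8 neighbouring pairs differed, and the test did not set apart pgWAT from brain, brain from psWAT, psWAT from OB, liver from brainstem or cerebellum from stomach.

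Among the C/EBPs, Cebpa encodes the factor that keeps hepatocytes and fat cells differentiated. Its level was 658 (SD 199) in pgWAT, 509 (SD 121.7) in iBAT, 308 (SD 32.6) in liver, 279.7 (SD 285) in psWAT, 37.5 (SD 14.1) in stomach, 12.0 (SD 2.50) in brain, 8.52 (SD 1.06) in brainstem, 7.76 (SD 1.14) in OB and 7.21 (SD 1.303) in cerebellum. For Cebpa 4 of 8 neighbouring pairs differed, and the test did not set apart pgWAT from iBAT, liver from psWAT, brainstem from OB or OB from cerebellum. Cebpb encodes the factor induced by hormones and inflammation. Its level was 77.7 (SD 32.9) in liver, 65.02 (SD 32.1) in iBAT, 17.8 (SD 15.05) in psWAT, 15.6 (SD 9.62) in pgWAT, 12.0 (SD 4.74) in stomach, 3.86 (SD 2.41) in brain, 1.46 (SD 0.353) in OB, 1.06 (SD 0.517) in cerebellum and 0.978 (SD 0.4265) in brainstem. For Cebpb 5 of 8 neighbouring pairs differed, and the test did not set apart psWAT from pgWAT, pgWAT from stomach or cerebellum from brainstem. Cebpd encodes C/EBPδ, which is induced early in fat cell formation and by stress hormones. Its level was 28.8 (SD 17.8) in pgWAT, 24.95 (SD 9.69) in psWAT, 17.2 (SD 10.5) in stomach, 10.3 (SD 2.545) in OB, 8.645 (SD 3.615) in liver, 5.15 (SD 2.895) in iBAT, 4.33 (SD 1.61) in brain, 2.665 (SD 1.15) in cerebellum and 2.27 (SD 0.7855) in brainstem. For Cebpd 4 of 8 neighbouring pairs differed, and the test did not set apart pgWAT from psWAT, iBAT from brain, brain from cerebellum or cerebellum from brainstem.

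Of the 80 neighbouring pairs 40 differed at a permutation adjusted p under 0.05. The top organ stood clear of the next for Ppara (16 of 17 mice higher in iBAT than in liver, mean log2 difference 1.48, permutation adjusted p 0.000487), Ppard (17 of 17 mice, 0.94, permutation adjusted p 0.000171), Ppargc1b (17 of 17, 1.84, permutation adjusted p 0.000171) and Rxra (18 of 18, 1.25, permutation adjusted p 0.000171). It also did for Rxrb (12 of 16, 0.34, permutation adjusted p 0.014), Rxrg (12 of 17, 0.64, permutation adjusted p 0.0135) and Cebpb (12 of 17, 0.27, permutation adjusted p 0.0461). For Pparg, Cebpa and Cebpd the leading 2 organs did not differ. These orders pool fed and fasted libraries. In fed mice alone, without a test, the highest mean of Rxrb was in OB (85.4, brain 76.8), of Cebpb in iBAT (48.9, liver 44.02) and of Cebpd in psWAT (20.4, pgWAT 14.6), and the other 7 kept their top organ. Order between organs depends on scaling: with TMM over all libraries together every member's order changed, and Pparg and Cebpa then led in iBAT, while 8 of 10 top organs were the same.

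**Figure D1:**
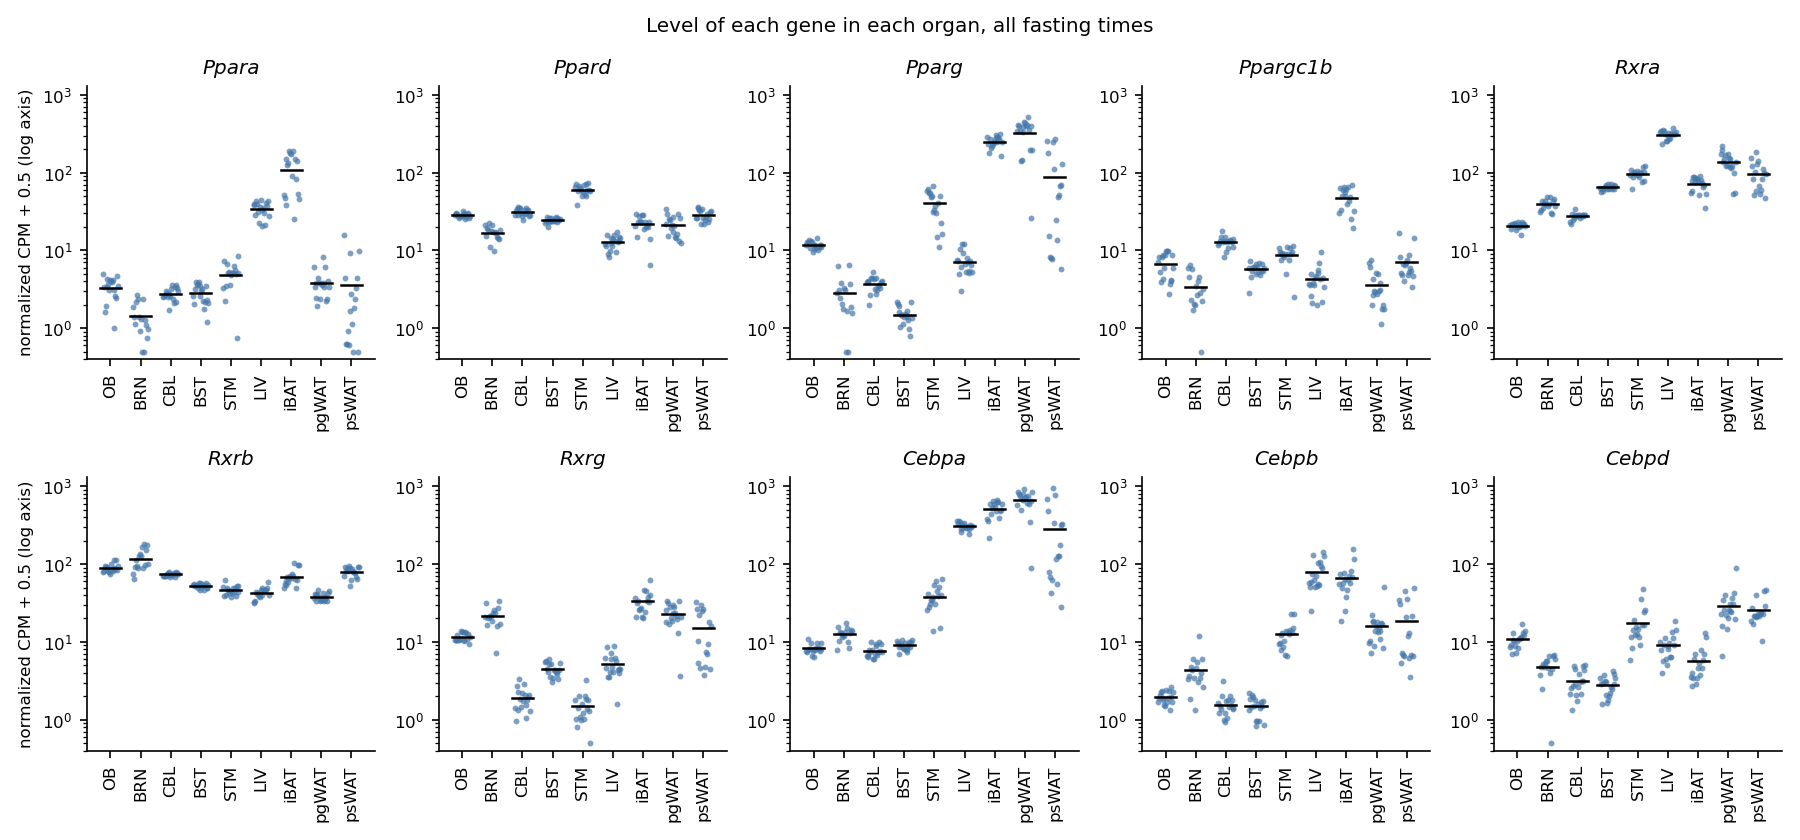
Level of each member in each organ: 1 point per library, CPM after TMM scaling within the organ on a log axis, organs along the horizontal axis. Pparg and Cebpa have their highest means in pgWAT and iBAT and spread widely in psWAT, and Rxrb differs least between organ means.

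Within a family the members can be compared once levels are divided by the length of their merged exons. Over all times together the PPAR family was led by a different member in liver, in brain regions and in fat. By the same means the RXR family was led by Rxra or Rxrb, and the C/EBP family by Cebpa in 9 of 9 organs. Single times and libraries differed. Rxrg was highest per kb in some iBAT libraries, among them 0 h replicates 1 and 3. In late OB the mean per kb of Cebpd lay above that of Cebpa.

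Of the summed PPAR level per kb, Ppara held 68.7% (SD 7.32) in liver, and Ppard held 70.8% (SD 15.2) in brain, 70.9% (SD 4.37) in cerebellum and 77.4% (SD 5.601) in brainstem. Pparg held 94.9% (SD 7.21) in pgWAT, 74.3% (SD 9.62) in iBAT, 70.7% (SD 23.8) in psWAT and 56.6% (SD 13.3) in stomach. These shares cover all times, and Ppard was ahead of Pparg by mean share in late stomach libraries and in psWAT at 2 h. The leader is thus Ppara only in liver, although its level per CPM is higher in iBAT, where Ppara held 23.2% (SD 9.62) of the family. In OB the leader is unsettled, with Pparg at 46.1% (SD 4.24) and Ppard at 45.0% (SD 2.84), and by the longest transcript Ppard leads with 55.04% against 38.9%.

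Of the summed RXR level per kb, Rxra held 81.5% (SD 2.72) in liver, 59.2% (SD 6.47) in stomach and 55.4% (SD 6.98) in pgWAT. Rxrb held 72.3% (SD 2.28) in OB, 63.4% (SD 8.39) in brain, 76.9% (SD 2.17) in cerebellum, 49.3% (SD 2.22) in brainstem, 38.4% (SD 4.37) in iBAT and 48.3% (SD 14.5) in psWAT. Rxrg came closest to a lead in iBAT with 31.7% (SD 7.68). Rxra held 29.9% (SD 7.76) there, so brown fat had the most even mixture of the 3 RXRs per kb.

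Of the summed C/EBP level per kb, Cebpa held from 44.5% (SD 5.64) in OB, where Cebpd held 40.99% (SD 6.10), to 92.3% (SD 5.14) in pgWAT. Cebpb held its largest shares in stomach (30.1%, SD 6.44), liver (29.5%, SD 9.88) and brain (29.5%, SD 12.8).

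**Figure D2:**
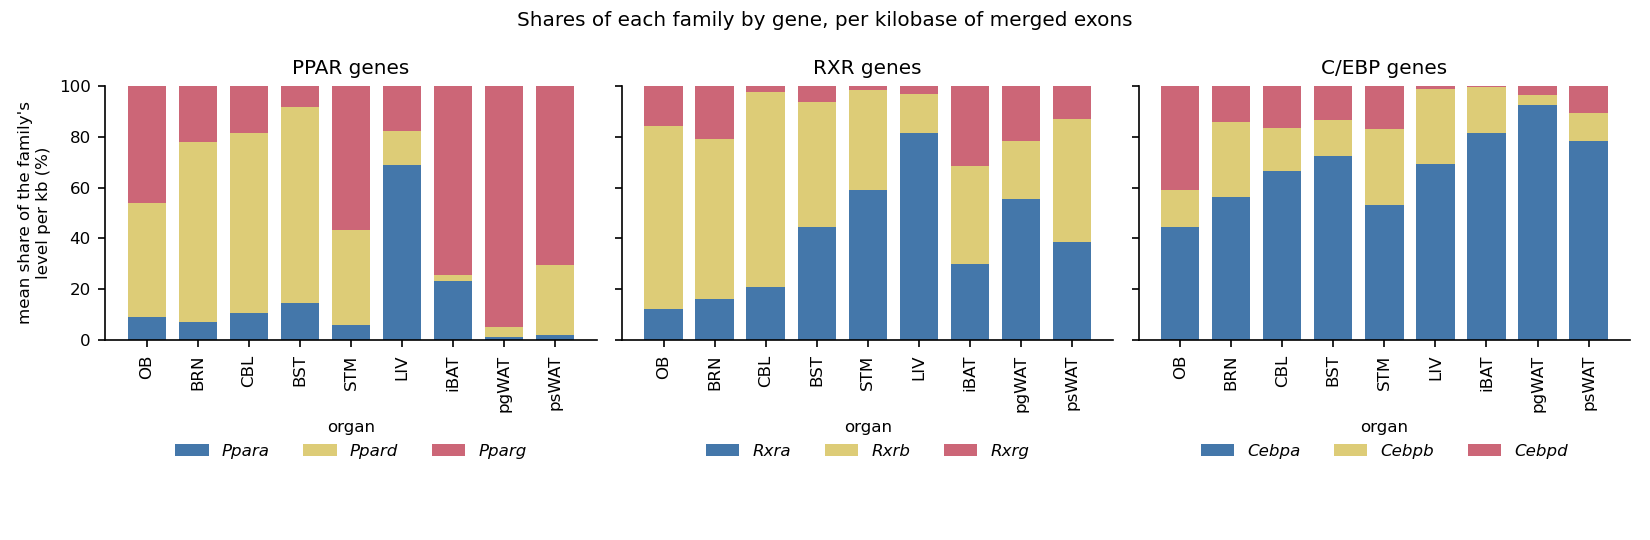
Share of each family's summed level per kb of merged exons, as the mean over the libraries of each organ in percent. Over all times together Cebpa leads its family in every organ, while the leading PPAR and RXR depend on the organ.

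Fasting moved few of these genes past the threshold, and every call in the late contrast as defined above was a rise, while some falls passed under other settings. Cebpd rose in stomach, iBAT and OB, Rxrb in liver, brain and iBAT, and Cebpa in iBAT. Brown fat was the organ with the most members changing over time, but it was also the organ where most genes changed.

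In the joint test of all 5 fasting times against 0 h, 9 of 90 tests were called, in 6 members and 4 organs. In iBAT 5 of 10 members were called beside 29% of the 14529 kept genes, in liver 1 of 10 beside 16% of 14023, in OB 2 of 10 beside 15.3% of 16742, and in stomach 1 of 10 beside 6.55% of 16281. The 5 in iBAT ran from 0 (without 22 h replicate 2) to 7 when 1 library was left out. They were 0 with library series as a covariate, which sets that same library apart. No excess over all genes is read from them. In the other 5 organs edgeR called 0 of 10. There 1 member in brain, 1 in cerebellum, 2 in brainstem, 3 in pgWAT and 4 in psWAT had an unadjusted p under 0.05, and DESeq2 called 0, 0, 0, 1 and 4. Among all genes of these 5 organs, of 16749, 15976, 16784, 16412 and 16721, an unadjusted p under 0.05 was found for 2780, 3801, 1869, 1694 and 3192, and DESeq2 called 1577, 1771, 212, 556 and 2053. Of all kept genes 0.00597% were called in brain, 2.99% in cerebellum, 0.107% in brainstem, 0% in pgWAT and 0% in psWAT, so little passed there in any gene.

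In the late contrast 7 of 90 tests were called higher and 0 lower, in 3 members and 5 organs. In iBAT 3 of 10 members were higher beside 7.91% of all genes, in brain 1 of 10 beside 7.08%, in stomach 1 of 10 beside 6.21%, in liver 1 of 10 beside 5.19%, and in OB 1 of 10 beside 0.782%. In the 4 other organs edgeR called 0 of 10 higher, beside 0.125% of all genes in cerebellum, 0.0119% in brainstem, 0% in pgWAT and 0% in psWAT. There the members higher at an unadjusted p under 0.05 numbered 1, 1, 2 and 0, and DESeq2 called 1, 0, 1 and 0. Among all genes these numbers were 892, 703, 1954 and 325 by unadjusted p, and 160, 9, 570 and 5 by DESeq2. When 1 library was left out the count ran from 1 to 4 in iBAT and from 0 to 1 in OB, so no excess of members over all genes is read from these counts.

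No member fell past the threshold, while among all genes falls were common too. All genes called lower made up 13% in iBAT, 9.1% in stomach, 5.39% in liver, 4.17% in brain, 1.17% in OB, 0.219% in cerebellum, 0.0477% in brainstem, 0.00609% in pgWAT and 0% in psWAT, and edgeR called 0 of 10 members in each. Members lower at an unadjusted p under 0.05 numbered 1 in iBAT, 1 in stomach, 2 in liver, 0 in brain, 1 in OB, 0 in cerebellum, 1 in brainstem, 3 in pgWAT and 0 in psWAT. For all genes in the same order they were 3092, 2981, 1866, 2396, 1900, 1510, 952, 1614 and 542. DESeq2 called 1 lower in stomach beside 1844 of all genes, 2 in pgWAT beside 566, and 0 in the other 7 organs.

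**Figure D3:**
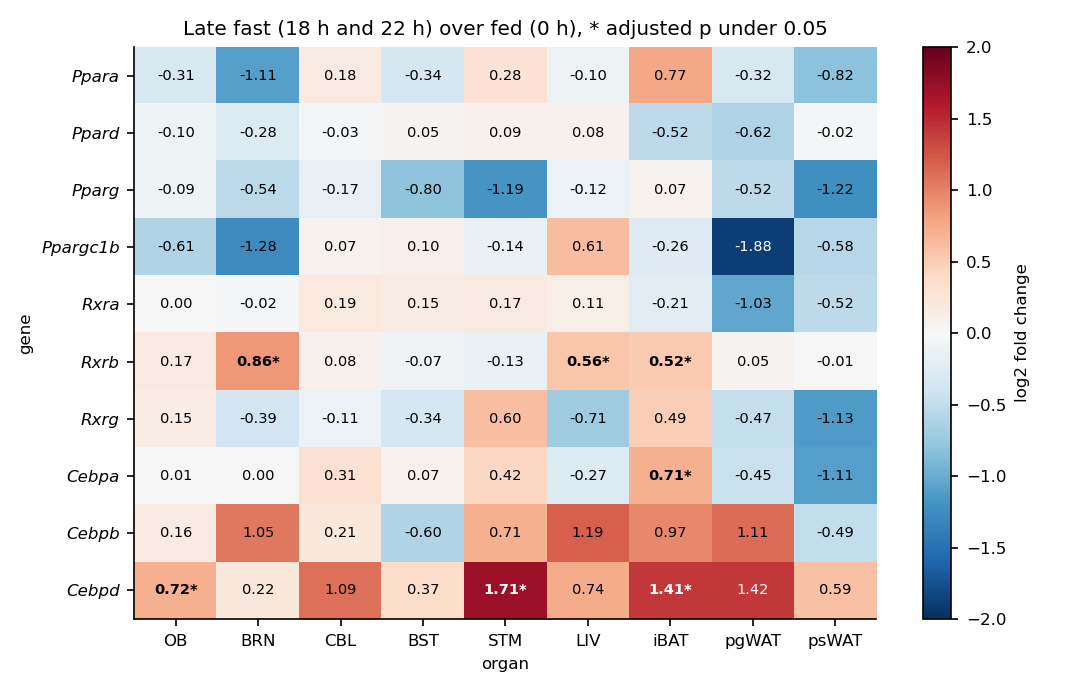
Late fast against fed log2 fold change of each member (vertical) in each organ (horizontal), with a star where the adjusted p is under 0.05. All starred cells are rises, and Cebpd is above 0 in every organ.

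Cebpd, the C/EBP gene of early and stress responses, was called higher in 3 of 9 organs, as was Rxrb. Its late fold change was above 0 in 9 of 9 organs, from log2 0.22 in brain to 1.71 in stomach with a median of 0.74. In brain the sign is not stable: 4 of 28 alternatives gave the other sign, and without 18 h replicate 3 the value was -3.34 (adjusted p 0.0322). In iBAT the level was highest at 22 h, but all 18 h libraries also lay above the fed ones. The 2 h libraries of iBAT stood at 2.91, 5.45 and 6.41 CPM, so some were up there as well. In stomach and OB all 2 h libraries lay above the fed ones, and the 18 h mice were uneven.

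In stomach Cebpd stood at 5.37, 11.1 and 7.81 CPM in the fed mice, at 35.3, 15.8 and 46.7 at 18 h and at 16.2, 23.7 and 25.4 at 22 h. All 6 late libraries lay above all 3 fed ones, and the highest 2 were both of 18 h. The late log2 fold change was 1.71 (SE 0.32, adjusted p 0.0052). The levels between were 13.6, 18.6 and 11.8 at 2 h, 15.1, 12.2 and 14.3 at 8 h, and 11.1 and 8.64 at 12 h, so the level was up at 2 h, overlapped the fed mice at 12 h and was highest at 18 h. At 22 h alone the adjusted p was 0.063, and leaving out any 1 library kept the call.

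In iBAT Cebpd stood at 3.04, 3.48 and 2.23 CPM in the fed mice, at 4.06, 5.28 and 6.42 at 18 h and at 12.4 and 11.0 at 22 h. All 5 late libraries lay above all fed ones, and the 22 h pair lay above the 15 other libraries of the organ. The late log2 fold change was 1.41 (SE 0.33, adjusted p 0.01). At 18 h alone the log2 fold change was 0.83 (adjusted p 0.498) and at 22 h alone 1.99 (0.00124). With the 5 libraries put back the late value was 1.19 (adjusted p 0.069), and leaving out any 1 library kept the late call.

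In OB Cebpd stood at 8.13, 8.53 and 6.47 CPM in the fed mice, at 11.2, 10.8 and 16.6 at 18 h and at 12.7, 11.8 and 13.2 at 22 h. All 6 late libraries lay above all fed ones, and the late log2 fold change was 0.72 (SE 0.16, adjusted p 0.0316). Leaving out 0 h replicate 1 (adjusted p 0.146), 22 h replicate 1 (0.0568) or 22 h replicate 3 (0.0735) ended the call. With lane as a covariate the log2 fold change fell to 0.31 (adjusted p 0.725) in OB, while in stomach it stayed at 1.64 with a wider SE of 0.625 (adjusted p 0.724), in a fit that called 0 of 16281 genes.

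Elsewhere the rise in Cebpd was not called by edgeR in the late contrast. DESeq2 called it in cerebellum and pgWAT, and edgeR did so in cerebellum at 22 h alone. It was log2 1.42 (SE 0.43) in pgWAT with 5 of 6 late libraries above all fed ones (adjusted p 0.118), 1.09 (SE 0.30) in cerebellum with 5 of 6 (adjusted p 0.0846), 0.74 (SE 0.33) in liver with 4 of 6 (adjusted p 0.165) and 0.59 (SE 0.39) in psWAT with 3 of 5 (adjusted p 0.936). In brainstem it was 0.37 (SE 0.29) with 2 of 6 (adjusted p 0.717) and in brain 0.22 (SE 0.57) with 3 of 5 (adjusted p 0.83). Without pgWAT 22 h replicate 2, which stands apart, Cebpd in pgWAT was called at 1.61 (adjusted p 0.0435).

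Rxrb, the RXR with the flattest levels across organs, rose by less than 2-fold in liver, brain and iBAT. In liver the fed mice lay within 2 CPM of each other. The rise there was visible from 2 h on and did not wait for a long fast.

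In liver Rxrb stood at 31.9, 31.4 and 32.8 CPM in the fed mice, at 46.2, 45.5 and 46.2 at 18 h and at 48.2, 57.8 and 39.3 at 22 h. All 6 late libraries lay above all fed ones, and so did the 9 libraries of 2, 8 and 12 h, from 36.9 to 48.3. The late log2 fold change was 0.56 (SE 0.12, adjusted p 0.00521) and leaving out any 1 library kept it, from 0.49 to 0.62. With lane as a covariate it was 0.26 (adjusted p 0.621), and the joint call (adjusted p 0.0366) was lost in 9 of 18 fits without 1 library.

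In brain Rxrb stood at 73.1, 64.5 and 92.7 CPM in the fed mice, at 180.4 and 96.8 at 18 h and between 99.0 and 173 at 22 h. All 5 late libraries lay above all fed ones, with the lowest late value near the highest fed one. The late log2 fold change was 0.86 (SE 0.23, adjusted p 0.0278). It was 0.42 (adjusted p 0.676) with library series as a covariate, and the adjusted p was 0.531 with the libraries left out by the study put back. Leaving out 0 h replicate 1 (adjusted p 0.128), 2 (0.109) or 3 (0.0584), 18 h replicate 2 (0.122), or 22 h replicate 1 (0.0603) or 2 (0.0641) ended the call.

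The late brain libraries also held more oligodendrocyte transcript on average. The 3 oligodendrocyte markers (most abundant Mbp, 0 markers at 0) summed to 5641 CPM (SD 784) in fed and 11920 (SD 5868) in late libraries, with 1 of 3 called higher, while the 4 neuron markers went from 3654 (SD 228) to 2995 (SD 645). Among late libraries the oligodendrocyte sum of 18 h replicate 3 (5552) lay within the fed range of 4738 to 6153. That of 22 h replicate 3 (6916) lay just above it. The other late sums were 14940, 12370 and 19850. What part tissue make-up has in the rise of Rxrb in brain was not tested.

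In iBAT Rxrb stood at 48.3, 55.6 and 52.9 CPM in the fed mice, at 64.5, 48.4 and 62.4 at 18 h and at 96.1 and 97.2 at 22 h. Of 5 late libraries 4 lay above all fed ones, and 18 h replicate 2 lay at the fed level. The late log2 fold change was 0.53 (SE 0.16, adjusted p 0.0294), but 18 h alone gave 0.16 (adjusted p 0.867). Leaving out 0 h replicate 1 (adjusted p 0.0935), 2 (0.084) or 3 (0.0589), 18 h replicate 1 (0.0503) or 3 (0.0593), or 22 h replicate 2 (0.0637) ended the call. With library series as a covariate the log2 fold change was 0.529 (adjusted p 0.0611). The joint call (adjusted p 0.0134) was lost with that covariate (0.0732) and without 22 h replicate 2 (0.0729). That library is the only retained one of its series in iBAT, so these are nearly the same check.

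In the other 6 organs Rxrb changed little, with late log2 fold changes from -0.13 in stomach to 0.17 in OB. By edgeR against 0 h Rxra and Rxrg had no late call in any organ. With the mean of 0 h and 2 h as fed, edgeR called both in iBAT, and at 22 h alone Rxrg there. The nearest otherwise were Rxra in pgWAT, given below, and Rxrg in iBAT at 0.49 (SE 0.24, 3 of 5 late libraries above all fed ones, adjusted p 0.146).

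In brown fat the regulators followed different time courses. Cebpa was up from 2 h on and stayed up, Ppara rose within 2 h, peaked at 8 h and was back at the fed level at 22 h, and Ppard was low only at 22 h. The late contrast catches the first of these and misses the other 2.

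Cebpa in iBAT stood at 377, 361 and 217 CPM in the fed mice, at 630.2, 394 and 482 at 18 h and at 490.0 and 595 at 22 h. All 5 late libraries lay above all fed ones, as did all 9 libraries of 2, 8 and 12 h, from 446 to 658. The late log2 fold change was 0.71 (SE 0.21, adjusted p 0.0246). The joint call (adjusted p 0.0486) was lost in 13 of 17 fits without 1 library. Without 0 h replicate 2 (adjusted p 0.0632) or 0 h replicate 3 (0.0988), or at 18 h alone (0.342), the late call was lost. With the mean of 0 h and 2 h as the fed group the log2 fold change was 0.36 (adjusted p 0.102).

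Ppara in iBAT stood at 50.7, 47.4 and 37.5 CPM in the fed mice, 149.5, 124.4 and 131.7 at 2 h, and 190.4, 176 and 173 at 8 h. It then stood at 90.9, 191.6 and 24.7 at 12 h, between 81.4 and 150.2 at 18 h, and 52.2 and 44.7 at 22 h. All libraries of 2, 8 and 18 h lay above all fed ones, 12 h held both the highest and the lowest value of the organ, and 22 h overlapped the fed mice. The joint test called it (adjusted p 0.0274), and 8 of 17 fits without 1 library lost the call. The library at 24.7, 12 h replicate 3, had the organ's highest sum of skeletal muscle markers, 9342 CPM against a median of 870, and the part of this was not tested.

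Ppard in iBAT stood at 19.9, 28.9 and 14.4 CPM in the fed mice, between 18.2 and 28.2 at 2, 8, 12 and 18 h, and at 6.05 and 13.7 at 22 h. The 22 h pair were the lowest 2 libraries of the organ. The joint adjusted p was 0.0446 and 12 of 17 fits without 1 library lost the call. It was also lost with replicate number as a block, with library series as a covariate and with the length trend below taken out. At 22 h alone it was called lower at log2 -1.04 (adjusted p 0.0139), and so was the late mean against the mean of 0 h and 2 h at -0.626 (adjusted p 0.0227). Its log2 late fold change was -0.52 (SE 0.24, adjusted p 0.115), and -0.15 (adjusted p 0.62) once a trend with transcript length was taken out.

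That trend is strong in iBAT. Across genes the late log2 fold change fell with merged exon length (Spearman rho -0.475 over 14243 genes, which are not independent replicates), with a median of 0.40 in genes up to 2.35 kb and -0.52 in those from 6.49 kb. It was also present in brain (-0.408), OB (-0.379) and pgWAT (-0.347), and rho was between -0.022 and 0.175 in the 5 other organs. With it taken out, 2 of 10 members kept a joint call in iBAT, Rxrb (adjusted p 0.00625) and Cebpd (0.0085), and late Cebpa had log2 0.55 (adjusted p 0.0746).

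Some cell type markers moved in iBAT too. The 4 mature adipocyte markers (most abundant Cidec, 0 at 0) summed to 2885 CPM (SD 158.6) in fed and 4070 (SD 558) in late libraries with 2 of 4 called higher, the 2 endothelial markers (most abundant Cdh5) fell from 362 (SD 135.2) to 205 (SD 79.3) with 2 of 2 called lower, and the 4 brown adipocyte markers were at 7786 (SD 2597) and 7832 (SD 1305) with 1 of 4 called higher. Their part in the levels of Cebpa and Rxrb was not tested.

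**Figure D4:**
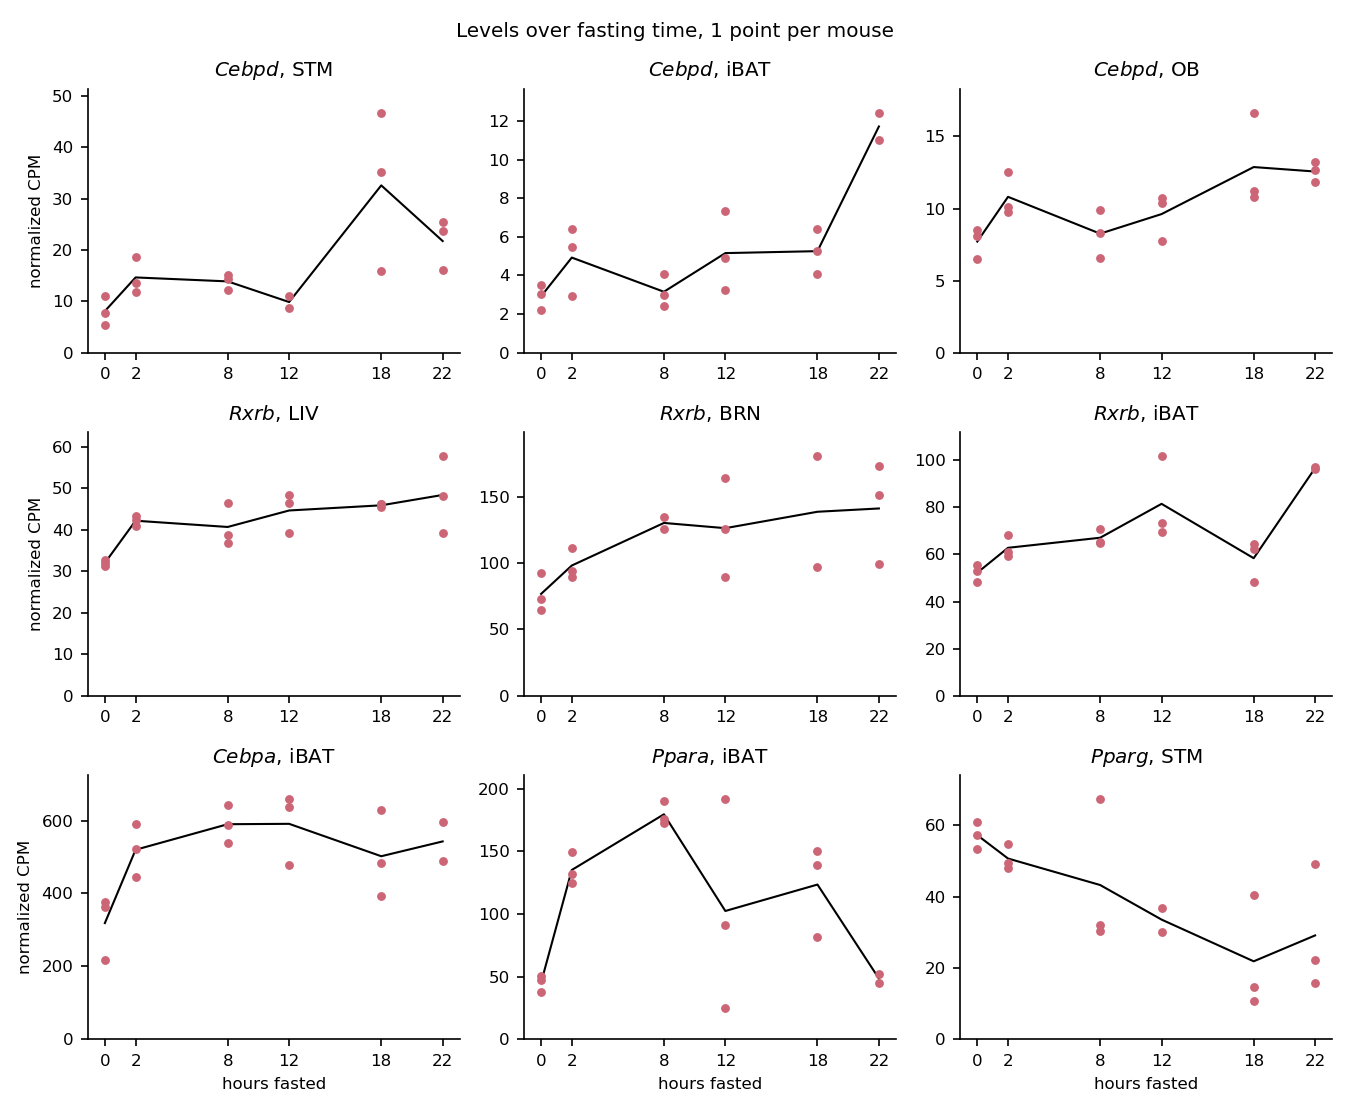
CPM of single libraries (points) at each hour of fasting for members and organs named above each panel. Ppara in iBAT rises and returns, and Rxrb in liver is up from 2 h.

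In OB the coactivator gene Ppargc1b rose and fell between neighbouring times. It stood at 6.64, 7.82 and 4.74 CPM in the fed mice, at 9.19, 9.46 and 9.27 at 12 h and at 2.25, 3.16 and 3.55 at 18 h. The 12 h libraries were the highest 3 of the organ and the 18 h libraries lay below all fed ones, with no overlap between the 3 times. At 22 h it stood at 3.69, 8.22 and 5.43, so the low level did not hold. The joint test called it (adjusted p 0.0149), and leaving out 18 h replicate 1 ended the call (adjusted p 0.0738). Its late log2 fold change was -0.61 (SE 0.25, 4 of 6 late libraries below all fed ones, adjusted p 0.16).

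Some changes without a call were large and even enough to state. They are falls of Pparg in stomach and of Ppargc1b and Rxra in pgWAT, and a rise of Cebpb in liver. Each was called under at least 1 other setting, and none is read as a result.

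Pparg in stomach stood at 57.3, 60.9 and 53.5 CPM in the fed mice and at 14.6, 40.3, 10.6, 49.3, 22.2 and 15.8 in the late ones. All 6 late libraries lay below all fed ones, at a log2 fold change of -1.19 (SE 0.39, adjusted p 0.054), and DESeq2 called it (adjusted p 0.018). Its share of the PPAR level per kb in stomach went from 69.6% (SD 6.41) to 44.2% (SD 13.1), and Ppard led by mean share in the late libraries. The 4 mature adipocyte markers (most abundant Cidec, 0 at 0) summed in stomach to 34.7, 13.5 and 45.96 CPM in fed and to 10.6, 20.96, 12.4, 22.5, 8.08 and 10.1 in late libraries, with 1 of 4 called lower (Lep). Stomach tissue varied in other ways too, with the 4 pancreatic acinar markers (most abundant Pnlip, 3 of 3 kept ones lower) at a mean of 56.4 in fed and 0.985 in late libraries. The fed sums were 30.2, 1.58 and 137.3, so fed replicate 2 lay within the late range of 0 to 2.30. Skeletal muscle, keratinocyte and gastric gland sums are given above with Cebpd. What part fat, pancreas or other tissue in the samples has in the fall of Pparg was not tested.

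Cebpb in liver stood at 57.3, 50.3 and 24.5 CPM in the fed mice and at 53.0, 105.8, 95.3, 89.02, 143.1 and 126.3 in the late ones. Of 6 late libraries 5 lay above all fed ones, at log2 1.19 (SE 0.37, adjusted p 0.0553), and DESeq2 called it (adjusted p 0.0109). Cebpa in liver went the other way at -0.27 (SE 0.10, 6 of 6 below all fed ones, adjusted p 0.103). As a description without a test, per kb Cebpb held 17.7% (SD 6.14) of the C/EBP level in fed and 36.8% (SD 7.73) in late livers, and Cebpa 81.3% (SD 6.56) and 61.5% (SD 8.15). The liver's hepatocyte markers summed to 86190 CPM (SD 4803) in fed and 86640 (SD 8185) in late libraries, with 0 of 4 called.

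Ppargc1b in pgWAT stood at 6.39, 5.62 and 6.92 CPM in the fed mice and at 2.55, 3.25, 0.638, 1.27, 1.48 and 1.29 in the late ones. All 6 late libraries lay below all fed ones, at log2 -1.89 (SE 0.42, adjusted p 0.0762). Without pgWAT 22 h replicate 2 it was called at -1.92 (adjusted p 0.0465). Rxra in pgWAT stood at 174, 197 and 218 CPM in the fed mice and at 113.9, 119.9, 53.1, 97.7 and 53.7 in 5 of the 6 late ones. The last, 22 h replicate 3, lay between these and the fed mice, so again the groups did not overlap, at log2 -1.03 (SE 0.27, adjusted p 0.0902). The epididymal sum of 22 h replicate 3 was 609.6. The lowest 2 late values, 53.1 and 53.7, are 18 h replicate 3 and 22 h replicate 2, the 2 late libraries with the highest epididymal sums given above. Without the first the log2 fold change was -0.888 (adjusted p 0.143) and without the second -0.885 (0.0554), and the part of epididymal tissue was not tested further. The share of Rxra in the RXR level per kb went from 64.1% (SD 1.25) to 48.95% (SD 7.04). DESeq2 called both (adjusted p 0.00283 and 0.0114).

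In psWAT edgeR called 0 of 10 members in either test, and DESeq2 called 4 in the joint test and 0 in the late contrast. Pparg there ran from 5.21 to 267 CPM with 7.67, 7.56 and 7.19 at 2 h, where the mature adipocyte markers summed to 464, 212 and 246. Libraries of 1 time spread widely, such as 257, 176 and 14.9 at 0 h.

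The late effect differed between organs for 3 of the 10 members. In the same test 6512 of 21601 genes passed (30.1%). The 3 were Rxrb (adjusted p 0.000257), from -0.13 in stomach to 0.86 in brain, Rxra (adjusted p 0.0003), from -1.03 in pgWAT to 0.19 in cerebellum, and Ppargc1b (adjusted p 0.00287), from -1.89 in pgWAT to 0.61 in liver. For the other 7 a difference between organs was not shown: Cebpb (adjusted p 0.0799), Cebpa (0.0899), Ppard (0.117), Cebpd (0.127), Rxrg (0.174), Pparg (0.529) and Ppara (0.564). Organs of 1 mouse are not independent, and with the animal as a block 5 members were called beside 6463 of 21601 genes, with Cebpd (adjusted p 0.0195) and Cebpb (0.0291) added. Without libraries nearest to another organ 6 were called beside 7676 of 21542, and without the 22 h mouse of replicate 3 there were 9 beside 8158 of 21523. So the result for Cebpd depends on the setting, and no excess of members over all genes is read from these counts. The fit had no term for lane or library series. Fed and late libraries shared no lane in OB, stomach, liver and pgWAT, and in brain they differed in series. For these organs a different late effect cannot be told apart from a difference of lane or series.

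Without psWAT and pgWAT, where 8465 of 20514 genes passed, only Rxrb kept its call (adjusted p 6.16e-05), and Rxra (0.401) and Ppargc1b (0.0988) lost theirs. These organs were left out after the data were seen, and pgWAT held the lowest late fold change of both genes. The lost calls therefore do not show where the difference lies. Without brain and iBAT 3 members were called beside 3921 of 21266 genes. With the left out libraries put back it was Rxrb that lost its call in this test (adjusted p 0.0684). Rxra (0.00283) and Ppargc1b (0.00496) then kept theirs, beside 4405 of 21630 genes.

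The genes that these regulators are known to control moved in no uniform way. The target list of PPARα held both rises and falls in brown fat and stomach, and by edgeR falls alone in liver. Of its genes Angptl4 was called higher in 4 organs. Counts below are of kept genes called by edgeR in the late contrast unless said otherwise, beside all genes as given above, with no test of a list. With lane as a covariate 0 of all genes were called late in OB, brain and stomach, and in liver 10 were called higher and 11 lower. With library series as a covariate 0 were called in brain. At 18 h alone in iBAT only 5 of all genes were higher and 35 lower. At 22 h alone in stomach 30 of all genes were higher and 9 lower, and no gene of a list was called. With the left out libraries put back 0 of all genes were called in brain.

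Of 28 listed PPARα targets, 0 rose in liver, where 3 of 28 fell and 7 of 28 changed in the joint test (all genes 16%). Among the 3 were Plin2 (log2 -0.65, adjusted p 0.00318) and Etfdh (-0.68, adjusted p 0.0411), each lower in 6 of 6 late libraries than in any fed one, and the list's median was -0.03 against 0.01 for all genes. In iBAT 4 of 22 rose and 2 fell (median 0.27, all genes -0.07), led by Angptl4 (1.75, adjusted p 0.0029), Acot1 (1.58, adjusted p 0.0397) and Plin5 (0.75, adjusted p 0.00903), each above all fed libraries in 5 of 5. Cpt1a fell there at -0.96 (adjusted p 0.0109), although 2 of 5 late libraries lay above all fed ones and 2 below. In stomach 3 of 24 rose, among them Pdk4 (1.91, 5 of 6 above all fed, adjusted p 0.00442) and Angptl4 (1.31, 5 of 6, adjusted p 0.0414), and 5 fell, with Ehhadh (-0.96, 6 of 6 below, adjusted p 0.0193) furthest (median -0.22, all genes -0.003).

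Angptl4, which encodes an inhibitor of lipoprotein lipase, was also the only listed target called in cerebellum (1 of 19, log2 1.42, 6 of 6 late libraries above all fed, adjusted p 0.0334) and in brainstem (1 of 21, 1.25, 6 of 6, adjusted p 0.0453). In brainstem 0 of the list were called with DESeq2, with a replicate block, with the length trend taken out, with the mean of 0 h and 2 h as fed, or at 18 h or 22 h alone. In cerebellum 0 were called with the mean of 0 h and 2 h as fed or at 18 h alone. In OB 0 of 19, in brain 0 of 22, in pgWAT 0 of 23 and in psWAT 0 of 23 of the list were called by edgeR, while DESeq2 called 1 higher in OB, 2 in brain and 1 in pgWAT. The edgeR medians in these 4 organs were 0.08, 0.13, 0.05 and -0.78, against -0.01, -0.09, 0.05 and -0.01 for all genes, and in psWAT the median was 0.392 with the mean of 0 h and 2 h as fed.

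Of 24 listed PPARγ and adipocyte genes, 6 of 24 rose and 2 fell in iBAT (median 0.02, all genes -0.07), with Cfd (log2 1.38, adjusted p 0.00151), Adipoq (0.81, adjusted p 0.0044) and Dgat2 (0.77, adjusted p 0.00503) up in 5 of 5 late libraries and Gpd1 (-0.99, adjusted p 0.0044) down in 5 of 5. In liver edgeR called 0 of 17 higher and 4 lower (median 0.10, all genes 0.01; DESeq2 called 2 higher and 4 lower), among them Gpd1 (-0.70, adjusted p 0.00333), Agpat2 (-0.48, adjusted p 0.00262) and Dgat2 (-0.39, adjusted p 0.0218), in 6, 6 and 5 of 6 late libraries. In stomach 3 of 23 rose and 4 fell (median -0.29), the falls being Lep (-6.08, 6 of 6 below all fed, adjusted p 0.0052), Retn (-4.46, 6 of 6, adjusted p 0.00878), Cfd (-2.90, 4 of 6, adjusted p 0.0348) and Gpd1 (-1.37, 5 of 6, adjusted p 0.0173). These adipocyte genes fell in stomach, where Pparg was lower without a call, from a fed mean of 1.85 CPM for Lep and 52.9 (SD 40.6) for Cfd. In brain 3 of 17 rose (median 0.27), Plin4 (1.44, adjusted p 0.0397), Pnpla2 (0.89, adjusted p 0.0232) and Nnat (0.88, adjusted p 0.00832), each in 5 of 5, and in OB 1 of 15 (median 0.03), Pnpla2 (0.40, 6 of 6, adjusted p 0.0375). In cerebellum 0 of 15, brainstem 0 of 15, pgWAT 0 of 24 and psWAT 0 of 24 were called by edgeR (by DESeq2 2 lower in pgWAT), with medians of 0.20, 0.07, -0.33 and -0.99, the last of which was 0.576 with the mean of 0 h and 2 h as fed.

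Of 13 listed RXR partners, 3 of 13 rose in stomach (median 0.43, all genes -0.003): Nr4a1 (log2 1.14, adjusted p 0.0142), Thrb (0.62, adjusted p 0.0254) and Thra (0.50, adjusted p 0.0261), each in 6 of 6 late libraries. In brain 1 of 10 rose, the retinoic acid receptor gene Rara (1.01, 5 of 5, adjusted p 0.0478), and 1 fell, Nr4a2 (-1.52, 5 of 5, adjusted p 0.028), with a median of -0.43. The rise was lost with a replicate block, with the length trend taken out, with lane or library series as a covariate, with the mean of 0 h and 2 h as fed, at 18 h or 22 h alone and with the left out libraries put back. In OB 1 of 11 rose, Thra (0.23, 6 of 6, adjusted p 0.04), with a median of -0.10. By edgeR no gene was called among 10 in cerebellum, 11 in brainstem, 11 in liver, 10 in iBAT, 12 in pgWAT and 12 in psWAT, with medians of -0.15, -0.05, 0.19, 0.24, 0.01 and -0.11, and DESeq2 called 1 higher in liver, 1 lower in iBAT and 1 higher in pgWAT.

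Of 16 listed coregulators and PGC-1 partner factors, most were called lower in brown fat. In iBAT 0 of 16 rose and 10 fell, 62.5% against 13% of all genes (median -0.88, all genes -0.07), among them Esrrb (log2 -3.43, 5 of 5 late libraries below all fed, adjusted p 0.00204), Pprc1 (-1.45, 5 of 5, adjusted p 0.0213) and Ncoa3 (-1.41, 4 of 5, adjusted p 0.00434). With the trend over transcript length taken out 6 of 16 fell, 1 rose and the median was -0.28, beside 961 of 14243 genes lower, so the size of this fall depends on it. At 18 h alone 0 of 16 were lower (median -0.392) and at 22 h alone 12 (median -1.53), so the late count comes with the 22 h pair. In brain 3 of 16 fell (median -0.50), Med1 (-0.81, adjusted p 0.0189), Ncoa1 (-0.62, adjusted p 0.0316) and Ncoa3 (-0.59, adjusted p 0.0464), each in 5 of 5. With the same trend taken out 0 of 16 were called in brain and the median was -0.018, and with lane or library series as a covariate 0 were called too. In stomach 1 of 16 rose, Ncoa3 (0.60, 4 of 6, adjusted p 0.0426), and in liver 1 of 15, Crebbp (0.40, 6 of 6, adjusted p 0.0398), with medians of -0.01 and 0.14, and both calls were lost with a replicate block. In OB 0 of 16, cerebellum 0 of 16, brainstem 0 of 16, pgWAT 0 of 15 and psWAT 0 of 15 were called by edgeR, with medians of -0.11, 0.02, 0.05, -0.32 and -0.01, and DESeq2 called 1 lower in OB and 2 in pgWAT. The joint test in OB called 9 of 16, beside 15.3% of all genes. At 18 h alone 4 were lower there, beside 1057 of 16742 genes.

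Of 12 listed C/EBP targets of liver, 0 of 12 were called late in liver (median -0.19, all genes 0.01) and 1 of 12 in the joint test. In iBAT 1 of 4 rose, Hp (log2 0.74, 4 of 5 above and 1 below all fed, adjusted p 0.0115), a call lost with the length trend taken out, and 1 fell, Gys2 (-0.79, 2 of 5 below all fed, adjusted p 0.011). In OB, cerebellum, stomach, pgWAT and psWAT, where 1, 1, 7, 9 and 6 were kept, edgeR called 0, with medians of -1.49, -0.385, -2.68, 1.34 and -1.35, and DESeq2 called 2 lower in stomach and 1 higher in pgWAT. With lane as a covariate the median was 0.231 in OB and 0.157 in pgWAT. It was 0.224 in psWAT with the mean of 0 h and 2 h as fed. The pgWAT library with high hepatocyte markers, 18 h replicate 2, is a late one, and its part was not tested. In brain and brainstem 0 were kept. The other C/EBP family list (Cebpe, Cebpg, Cebpz, Ddit3) had 0 called by edgeR in 9 of 9 organs (by DESeq2 1 higher in brain), with medians from -0.42 in brain to 0.19 in stomach.

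Of 9 listed retinoid response genes, edgeR called 1 of 7 in brain and 1 of 6 in stomach. In the other 7 organs it called 0, of 7 in OB, 7 in cerebellum, 8 in brainstem, 7 in liver, 5 in iBAT, 5 in pgWAT and 7 in psWAT, and there DESeq2 called 1, lower in pgWAT.

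Over the 54 means of organ and time, the levels of some regulators ran together. As levels, Pearson r on log2 CPM was 0.883 for Cebpa with Cebpb, 0.790 for Pparg with Cebpa and -0.718 for Rxra with Rxrb. After each organ's own mean was taken out, r was 0.738 for Rxrg with Cebpa, 0.728 for Pparg with Cebpa and 0.713 for Rxra with Cebpa. What remains are differences between times within an organ, which include those of tissue make-up and lane. Points of 1 time share mice, and points of 1 organ share tissue make-up, so these are descriptions.

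Of 21600 other genes, those most like a member by changes within organs, over the same 54 points, were Dgat2 (r 0.930), Fitm2 (0.910) and Mgll (0.90) for Cebpa, Lgals12 (0.895), Chp1 (0.879) and Tusc5 (0.866) for Pparg, and Maf1 (0.818), Adprhl2 (0.812) and Zfp622 (0.795) for Rxrb. For Rxra they were Extl3 (0.845), Klb (0.839) and Nos2 (0.827), for Ppard Prrc2a (0.872), Neurl4 (0.824) and Bcl9l (0.822), and for Ppara Cdkl2 (0.713), Dpyd (0.708) and Acvr1c (0.705). For Ppargc1b they were Ric1 (0.724), Soga1 (0.721) and Tgfbrap1 (0.680), for Rxrg Cib2 (0.768), G0s2 (0.752) and Slc25a10 (0.739), for Cebpb Zbtb11os1 (0.741), H1fx (0.737) and Pla2g12a (0.737), and for Cebpd Gm16124 (0.768), E230001N04Rik (0.768) and Plekhf1 (0.758). By levels the closest gene was Akap1 for Ppara (0.939), Ror2 for Ppard (0.876), Cdkn2c for Pparg (0.950), Adprhl1 for Ppargc1b (0.868) and Pter for Rxra (0.928). It was Yjefn3 for Rxrb (0.849), Mcat for Rxrg (0.851), 2010003K11Rik for Cebpa (0.983), Etfb for Cebpb (0.964) and Bgn for Cebpd (0.90).

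Because Pparg and Cebpa moved together within organs, their promoters are shown, from 250 bases before to 50 after the start in RefSeq (GRCm38.p6, plus strand). RefSeq matched 8 of the 10 members with 13 promoters, and none for Cebpd and Ppargc1b. The core motif of C/EBP sites, GCAAT on either strand, was in 2 of the 13 and in 26.4% of 32851 promoters of this length, and the core motif of nuclear receptor sites, AGGTCA on either strand, in 4 of 13 with 5 copies and in 16.3% of all. Capitals mark AGGTCA, which 2 of the 3 Pparg promoters hold once, chr6:115360894-115361193 and chr6:115362099-115362398, and which neither the third, chr6:115421816-115422115, nor the Cebpa promoter, chr7:35119043-35119342, holds. A match is only a match of letters.
Pparg at chr6:115360894-115361193: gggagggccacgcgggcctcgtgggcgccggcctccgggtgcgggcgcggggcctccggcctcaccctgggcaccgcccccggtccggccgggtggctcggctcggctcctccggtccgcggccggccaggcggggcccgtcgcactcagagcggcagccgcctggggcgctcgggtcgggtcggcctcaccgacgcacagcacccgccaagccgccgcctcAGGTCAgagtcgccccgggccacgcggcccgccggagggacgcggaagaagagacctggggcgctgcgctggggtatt
Pparg at chr6:115362099-115362398: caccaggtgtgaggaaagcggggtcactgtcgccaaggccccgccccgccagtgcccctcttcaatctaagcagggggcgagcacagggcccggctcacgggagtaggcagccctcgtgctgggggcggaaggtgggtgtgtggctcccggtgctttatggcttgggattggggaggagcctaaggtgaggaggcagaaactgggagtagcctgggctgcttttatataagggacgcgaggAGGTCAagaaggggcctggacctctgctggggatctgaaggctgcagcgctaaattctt
Pparg at chr6:115421816-115422115: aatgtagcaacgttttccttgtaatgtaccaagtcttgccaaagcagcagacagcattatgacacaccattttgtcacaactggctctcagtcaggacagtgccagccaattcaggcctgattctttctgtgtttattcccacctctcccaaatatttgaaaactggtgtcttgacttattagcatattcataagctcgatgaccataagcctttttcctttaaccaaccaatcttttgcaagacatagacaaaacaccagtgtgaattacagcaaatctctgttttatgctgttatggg
Cebpa at chr7:35119043-35119342: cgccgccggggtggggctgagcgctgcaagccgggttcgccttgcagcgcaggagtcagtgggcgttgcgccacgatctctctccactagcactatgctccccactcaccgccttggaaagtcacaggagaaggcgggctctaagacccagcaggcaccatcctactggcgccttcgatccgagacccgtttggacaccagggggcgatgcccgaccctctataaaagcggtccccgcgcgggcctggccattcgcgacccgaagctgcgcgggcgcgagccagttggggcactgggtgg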

How the data were processed

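The deposited table holds, for each gene and library, the count that the authors made with TopHat2 2.1.1 (unique alignments, GRCm38.p5) and HTSeq 0.9.1 (exons, Gencode M16) from stranded mRNA libraries of 9 organs. Members were matched by symbol, and the members and lists were chosen with earlier results of these data known.

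Within each organ, genes were kept at a CPM equal to 10 counts at the organ's median total in at least 3 retained libraries. edgeR 4.0.16 (R 4.3.3, limma 3.58.1) fitted quasi-likelihood models with TMM and robust dispersions, with no covariate. The joint test compared the 5 fasting times with 0 h, the late contrast compared the mean of 18 h and 22 h with 0 h, and a fit over all organs, with edgeR's newer dispersion estimate for speed, tested whether the late effect differed between organs. Benjamini-Hochberg adjustment ran over all kept genes, and no fold threshold was set. Neighbouring organs were compared by a two-sided permutation test paired by mouse (100000 resamples, log2 of CPM + 0.5, adjusted over 80 pairs). Mice were matched across organs by time and replicate number. DESeq2 1.42.0, other filters, scalings, covariates and left out libraries are alternatives. The edgeR and DESeq2 fits of liver and iBAT and the edgeR test between organs were tested on simulated data. The outcome is not given here, and no error rate is read from it.

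Genes named from the lists (PPARα targets, PPARγ and adipocyte genes, RXR partners, coregulators, other C/EBP genes, C/EBP liver targets, retinoid response genes) are the 4 called genes with the largest absolute late log2 fold change per list and organ, some of which are not reported here. Like genes are the 3 with the highest Pearson r over the 54 organ and time means. Lengths are merged exons of Gencode M21. Counts of reads outside genes were not used here. Python 3.11.15, numpy 2.4.6, pandas 2.3.3 and matplotlib 3.10.9 drew the figures and the order test.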

Additional observations from a re-analysis of the deposited data

Results flagged for a closer look

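The rule used here lists each member whose late effect differs between organs, and 3 of 10 did, near the share of all genes. The late effect of Rxrb (adjusted p 0.000257), Rxra (adjusted p 0.0003) and Ppargc1b (adjusted p 0.00287) differed between organs. Rxrb rose in liver, brain and iBAT and hardly moved elsewhere, and Rxra and Ppargc1b had their lowest late fold change in pgWAT. In liver, brain and pgWAT the late contrast is also one between lanes or library series, and this test cannot tell these apart. Among all genes 30.1% passed the same test. With the animal as a block 5 of 10 members passed beside 6463 of 21601 genes, and without 1 animal 3 to 9 did, so the count of members depends on the setting. With the libraries left out by the study put back, Rxrb did not pass this test (adjusted p 0.0684).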

How the results depend on the processing

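Counts of members called in the joint test moved as follows. With lane as a covariate OB went from 2 to 1, stomach from 1 to 0 and liver from 1 to 0. By DESeq2 liver went from 1 to 2, iBAT from 5 to 8, pgWAT from 0 to 1 and psWAT from 0 to 4, while all genes called went from 2244 to 3585, 4212 to 5883, 0 to 556 and 0 to 2053. In iBAT library series as a covariate left 0 and transcript length offsets, chosen after seeing the data, left 2. In iBAT lane could not be fitted.

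In the late contrast a threshold of an absolute log2 fold change over 1 left 0 of 1 in OB, 0 of 1 in brain, 0 of 1 in liver and 1 of 3 in iBAT. At 18 h alone OB had 2, brain 0 and iBAT 0, and at 22 h alone OB had 0, cerebellum 1, stomach 0 and iBAT 6. Lane as a covariate left 0 in OB, brain, stomach and liver, and library series left 0 in brain. With the 5 libraries put back brain had 0. DESeq2 called 1 in cerebellum, 2 in stomach, 2 in liver and 3 in pgWAT. The mean of 0 h and 2 h as fed gave 3 in stomach, beside 1736 of all genes higher and 1960 lower, and 6 in iBAT, beside 2408 and 2823. At 22 h alone in iBAT these were 2768 and 3192. Counts here join both directions. Length offsets gave 2 in liver. Without libraries that lay nearest to another organ pgWAT had 2, and without those misplaced on 3 principal components, chosen after seeing the data, pgWAT had 2 and brain 0.

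Without a count filter the joint test called 1 in brain, 1 in cerebellum and 6 in liver, and the late contrast 2 in OB, 1 in cerebellum and 3 in liver. In those fits edgeR's prior degrees of freedom were infinite for all 10 members in OB, brain and liver, 8 in cerebellum and 9 in brainstem, so a gene's own scatter is not used and these calls support nothing.

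With replicate number as a replicate block the late contrast called 2 in stomach and the joint test 0 in liver, and no other count moved by over 1.5 times. Mice of different times share only a number: the mean correlation of their deviations ran from -0.073 in psWAT to 0.159 in iBAT.

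Leaving out 1 library gave joint counts of 0 to 2 in brain, 0 to 1 in cerebellum, 0 to 2 in liver, 1 to 2 in OB, 0 to 2 in stomach and 0 to 7 in iBAT (0 without 22 h replicate 2). Late counts ran from 0 to 4 in brain, 0 to 1 in cerebellum, 1 to 2 in liver, 0 to 1 in OB, 1 to 2 in stomach, 1 to 4 in iBAT and 0 to 2 in pgWAT. Values without a call, many of them near 0, changed sign in several organs. The 1 change of sign with a call on either side was Cebpd in brain, with a late log2 fold change of -3.34 (adjusted p 0.0322) without 18 h replicate 3, against 0.22. Then 18 h rests on 1 library of 3045845 counts with 0 for Cebpd, and without that library, 18 h replicate 2, the value was 0.645. The cause was not tested.

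The test between organs called 5 of 10 members with the animal as a replicate block, 6 without libraries nearest to another organ, 1 without psWAT and pgWAT (chosen after seeing the data), 2 with the left out libraries put back (beside 4405 of 21630 genes), and 3 to 9 when 1 animal was left out. The member lost with these libraries put back was Rxrb (adjusted p 0.0684).

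Of 80 neighbouring pairs 37 to 45 differed under the alternatives. Of the late calls of members 853 alternatives kept the call or its absence, 28 gained one and 18 lost one. With 1 library left out these were 1538, 14 and 17, besides the value in brain above.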
